A study of Mus musculus with 7 samples.

Results

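The proteasome genes of the mouse were followed in cells washed from the airspaces of inflamed lungs, in mice with and without floxed Ntn1 in myeloid cells. Members were the protein-coding genes whose symbols begin with Psma to Psmg and a number, with a mean of at least 10 normalized counts over the 7 libraries, and the inducible subunits Psmb8, Psmb9 and Psmb10 were left out. The table held 46 such genes among 16476, and none of the matching genes lay below the minimum. The lowest means were those of Psma8 (11.4), Psmc3ip (31.9) and Psmg3 (42.0). Psmc3ip entered by its name only: its product binds a proteasome ATPase but acts in meiotic recombination, so 45 members are proteasome genes. Psmb11, the thymus-specific subunit, was not analysed here.

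All mice were C57BL/6 and had received lipopolysaccharide, a component of the bacterial outer membrane, into the trachea 3 days before bronchoalveolar lavage, and neutrophils were removed from the cells with antibodies. The control group held 4 libraries from mice with the LysM Cre allele, a Cre recombinase in the lysozyme M locus that is active in macrophages and neutrophils. The knockout group held 3 libraries from mice with the same Cre and floxed Netrin1 alleles (Netrin1loxp/loxp LysM Cre), so the Cre and the lipopolysaccharide are common to both groups. The labels give neither the age of the mice nor whether a library came from 1 mouse, and p-values therefore measure the spread between libraries, which may in part be technical. Recovered totals lay between 9903284 and 13353733 reads per library. Ntn1 itself was hardly detected: the controls held 1, 4, 9 and 3 reads and the knockouts 1, 0 and 1 (2-sided exact permutation p = 0.0571 on normalized counts), so it gives little check on the labels.

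The proteasome degrades proteins tagged with ubiquitin. Its 20S core is a barrel of alpha rings, which gate the entry, and beta rings, which hold the catalytic sites. The 19S particle caps the barrel, binds ubiquitin chains, removes them and threads the substrate in with its ring of ATPases. Other caps, PA28 and PA200, open the core without ubiquitin, and dedicated chaperones build the core and the cap. In macrophages and lymphocytes exposed to interferon gamma, Psmb8, Psmb9 and Psmb10 replace the constitutive catalytic subunits, and the PA28 genes Psme1 and Psme2 are induced with them.

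Transcripts of the constitutive proteasome differed little between the groups. Of the 46 members 2 rose in knockouts, the core subunit gene Psmb4 and the core inhibitor gene Psmf1, and 0 fell, while 10.4% of the 12963 genes tested rose and 11.3% fell, 21.7% in all (limma, adjusted p under 0.05 over all genes). At an unadjusted p under 0.05, 15 members were higher and 1 was lower, against 18.1% and 18.5% of all genes. The quasi-likelihood test of edgeR called the same 2 members, and DESeq2 called 3 higher and 1 lower. The median log2 fold change was 0.13 over the members and 0.01 over all genes tested, and 37 members had a value above 0, as had 51.9% of all genes. The pointwise 95% interval of the fold change lay within 1.5-fold in either direction for 42 of 46 members and within 1.25-fold for 26. In cells of mixed type, a change in the share of a cell type and a change in transcript per cell cannot be told apart.

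**Figure D1:**
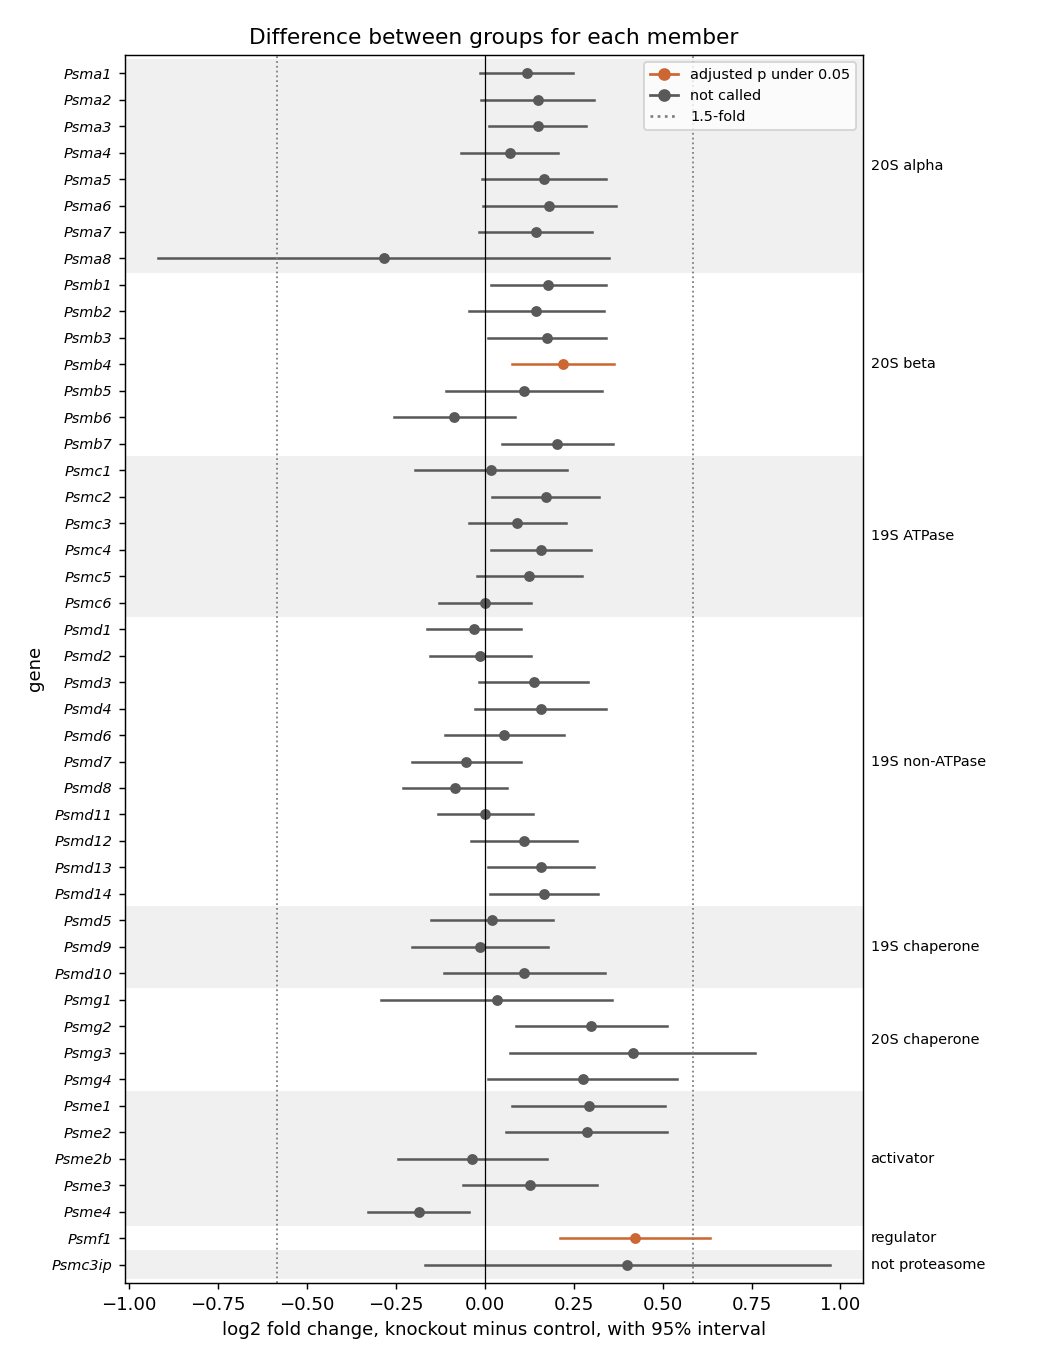
Log2 fold change of each member (knockout minus control, x axis) with its pointwise 95% interval from limma. Genes are ordered by role, orange marks the 2 genes with an adjusted p under 0.05 and dotted lines mark 1.5-fold. Most points lie just right of 0, and 42 of 46 intervals stay between the dotted lines.

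Promoters are shown for both called members and for the 3 activator genes whose groups did not overlap, so that the sequences can be read beside the values that follow. Each is the stretch of 250 bases before the start that RefSeq gives, 5′ to 3′ on the gene's strand (build GRCm38.p6). Psmb4 is at chr3:94886959-94887208, minus strand. Psmf1 is at chr2:151741311-151741560, minus strand. Psme1 is at chr14:55578244-55578493, plus strand, and Psme2 at chr14:55591102-55591351, minus strand. For Psme2 this is the first promoter listed. The second, at chr14:55591022-55591271 with 2 matches to GGGCGG, is not shown. Psme4 is at chr11:30771525-30771774, plus strand. The Psmf1 and Psme1 windows lie inside the longer spans that GENCODE gives these genes. Capitals mark matches, on either strand, to any of the 6 motifs described after the sequences; the matches here are to the GC box GGGCGG and the ETS core CCGGAAG.
Psmb4: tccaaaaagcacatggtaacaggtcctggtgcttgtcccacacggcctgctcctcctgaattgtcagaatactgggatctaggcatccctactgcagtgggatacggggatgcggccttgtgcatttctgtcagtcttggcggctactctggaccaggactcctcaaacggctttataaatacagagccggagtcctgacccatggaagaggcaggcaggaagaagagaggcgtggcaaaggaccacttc
Psmf1: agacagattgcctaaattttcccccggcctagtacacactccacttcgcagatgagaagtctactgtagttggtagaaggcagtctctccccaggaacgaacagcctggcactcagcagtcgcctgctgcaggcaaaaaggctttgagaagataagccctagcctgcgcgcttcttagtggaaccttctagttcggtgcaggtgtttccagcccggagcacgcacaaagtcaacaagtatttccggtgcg
Psme1: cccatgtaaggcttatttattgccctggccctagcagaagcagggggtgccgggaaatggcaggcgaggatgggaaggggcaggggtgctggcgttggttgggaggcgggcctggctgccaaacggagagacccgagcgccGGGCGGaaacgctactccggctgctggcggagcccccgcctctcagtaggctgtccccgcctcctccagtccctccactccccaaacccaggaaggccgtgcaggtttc
Psme2: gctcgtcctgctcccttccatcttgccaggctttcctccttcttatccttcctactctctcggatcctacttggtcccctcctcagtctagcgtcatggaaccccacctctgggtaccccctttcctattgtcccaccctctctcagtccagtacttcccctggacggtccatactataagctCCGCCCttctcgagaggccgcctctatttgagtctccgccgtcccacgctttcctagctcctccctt
Psme4: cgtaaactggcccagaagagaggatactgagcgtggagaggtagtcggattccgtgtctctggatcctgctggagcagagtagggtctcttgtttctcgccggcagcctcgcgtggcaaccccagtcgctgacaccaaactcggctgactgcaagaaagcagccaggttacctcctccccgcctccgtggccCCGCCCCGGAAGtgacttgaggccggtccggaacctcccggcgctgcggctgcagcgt

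The 6 motifs were searched on both strands in the first promoter listed for each gene, and 37 of 45 proteasome members had an entry. The GC box was in 21 of 37 (56.8%, against 32.9% of 27025 genes), and the ETS core in 11 (29.7%, against 7.05%). The CCAAT box was in 12 (32.4%, against 34.5%). The antioxidant response core TGACNNNGC, bound by NRF1, the factor that induces proteasome genes when proteasomes are inhibited, was in 5 (13.5%, against 10.2%). The core of the interferon-stimulated response element was in 3 (8.11%, against 3.04%) and the interferon gamma activated site TTCNNNGAA in 1 (2.70%, against 7.18%). The windows of Psmb4 and Psmf1 held none of the 6 motifs, and 7 members in all held none. In the Psme4 window the GC box and the ETS match share 1 base. A match describes letters only.

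Psmf1, which encodes PI31, a protein that binds the core and inhibits it in vitro, had the largest log2 fold change of the members. Its normalized counts (reads divided by a size factor for each library) were 315, 314, 345 and 349 in the 4 controls, in the order of their replicate numbers, against 464, 478 and 392 in the 3 knockouts. Every knockout library lay above every control library, as it did for 17.4% of all genes tested. Controls averaged 331 ± 18.8 (SD, n = 4) and knockouts 445 ± 46.1 (SD, n = 3). On the log2 scale the fold change was 0.42 (SE 0.09, adjusted p = 0.0147 by limma). The gene (ENSMUSG00000032869) spans 151715812 to 151744186 on chromosome 2 of GRCm38. Without knockout replicate 2 the value was 0.37 and the call was lost (adjusted p = 0.0623), and over the alternatives the adjusted p lay between 0.00388 and 0.0877.

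Among the 20S beta genes, Psmb4, a structural subunit without a catalytic site, was the 1 of 7 that passed the test. It stood at 1591, 1551, 1525 and 1502 normalized counts in the controls and 1923, 1739 and 1733 in the knockouts. The groups did not overlap, and the highest knockout library was replicate 1. The log2 fold change was 0.22 (SE 0.06, adjusted p = 0.0395), from 1542 ± 38.3 (SD, n = 4) to 1798 ± 107.8 (SD, n = 3). The call rested on all 7 libraries: with any single library left out, the adjusted p lay between 0.0558 and 0.0984 and the value between 0.17 and 0.25. Psmb4 (ENSMUSG00000005779) lies at 94884093 to 94886961 on chromosome 3.

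**Figure D2:**
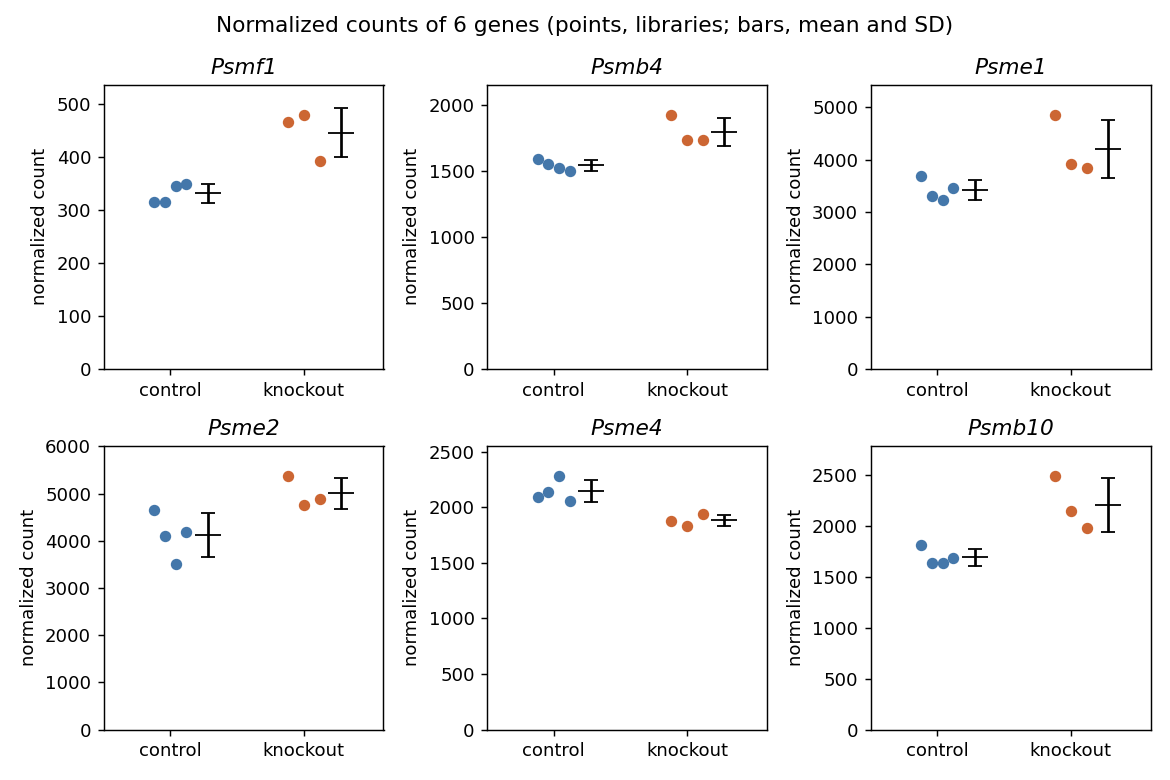
Normalized counts of 6 genes in each control library (blue) and knockout library (orange), with the mean and SD beside them; y axes start at 0. Psmf1 and Psmb4 rose, Psme1, Psme2 and Psme4 did not pass the test although their groups do not overlap, and Psmb10 is an inducible subunit shown for comparison.

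None of the 3 constitutive catalytic subunits passed the test. Psmb7, the trypsin-like subunit, stood at 696, 636, 649.6 and 611 in controls and at 738, 728 and 771 in knockouts. All knockout libraries were higher (0.20 on the log2 scale, SE 0.07, adjusted p = 0.0656). Psmb5, the chymotrypsin-like subunit that proteasome inhibitors target, had 497, 414, 386 and 463 in controls and 468, 463 and 486 in knockouts. Those groups overlapped, and the 95% interval ran from -0.11 to 0.33 on the log2 scale. For Psmb6, the caspase-like subunit, the values were 1349, 1287, 1132 and 1312 in controls and 1233, 1161 and 1187 in knockouts. It was the 1 beta gene with a value below 0 (log2 fold change -0.09, 95% interval -0.26 to 0.08, adjusted p = 0.441). Without control replicate 3 the values were 0.05 for Psmb5 and -0.14 for Psmb6, and without control replicate 1 they were 0.17 and -0.06. Exons of Psmb7 overlap those of Nek6 on the other strand, and with the strand setting unknown their reads cannot be told apart there.

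The other beta genes, Psmb1, Psmb2 and Psmb3, had log2 fold changes of 0.18, 0.14 and 0.17. Of the 7 alpha genes other than Psma8, which form the outer rings, all had values above 0, between 0.07 (Psma4) and 0.18 (Psma6), and none passed (1 at an unadjusted p under 0.05). Psma3 had the smallest p. Its counts were 1659, 1647, 1645 and 1601 in controls and 1890.1, 1723 and 1837 in knockouts. The groups did not overlap (log2 fold change 0.15, SE 0.06, adjusted p = 0.107). Psma8, a testis-specific alpha subunit that resembles Psma7, was close to the minimum of 10 at 11.2, 12.7, 9.73 and 16.3 in controls and 11.2, 9.61 and 9.03 in knockouts. Its log2 fold change of -0.28 was the lowest of the members, and its 95% interval ran from -0.92 to 0.35. Without control replicate 4 the value was -0.16.

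For the 19S particle, none of the 6 ATPase genes and none of the 11 non-ATPase genes passed the test, and 4 of the 17 were higher at an unadjusted p under 0.05. All 17 intervals lay within 1.5-fold. The median log2 fold change was 0.09, and it was 0.15 for the 14 core genes without Psma8; the difference between these medians was not tested. Psmc2, an ATPase of the unfolding ring, had 1296, 1363, 1227 and 1317 normalized counts in controls and 1530.1, 1388 and 1475 in knockouts. The groups did not overlap (log2 fold change 0.17, SE 0.07, adjusted p = 0.0953). Psmc6 and Psmd11 stood at 0.00 on the log2 scale, with intervals of -0.13 to 0.13 and -0.13 to 0.14.

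Psmd14, the deubiquitinase that cuts ubiquitin chains from substrates, was at 1159.8, 1286, 1289 and 1198 in controls and 1390.2, 1325 and 1436 in knockouts. It had the smallest p of the non-ATPase genes (log2 fold change 0.17, SE 0.07, adjusted p = 0.107), and its groups did not overlap. Psmd4, a ubiquitin receptor, had a log2 fold change of 0.16 (adjusted p = 0.198), with 1469 in knockout replicate 1 and 1247 and 1219.5 in the other knockouts against a highest control of 1220.2. The scaffold genes Psmd1 and Psmd2 had values of -0.03 and -0.01. Psmd8 and Psmd7, of the lid, had -0.08 and -0.05.

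**Figure D3:**
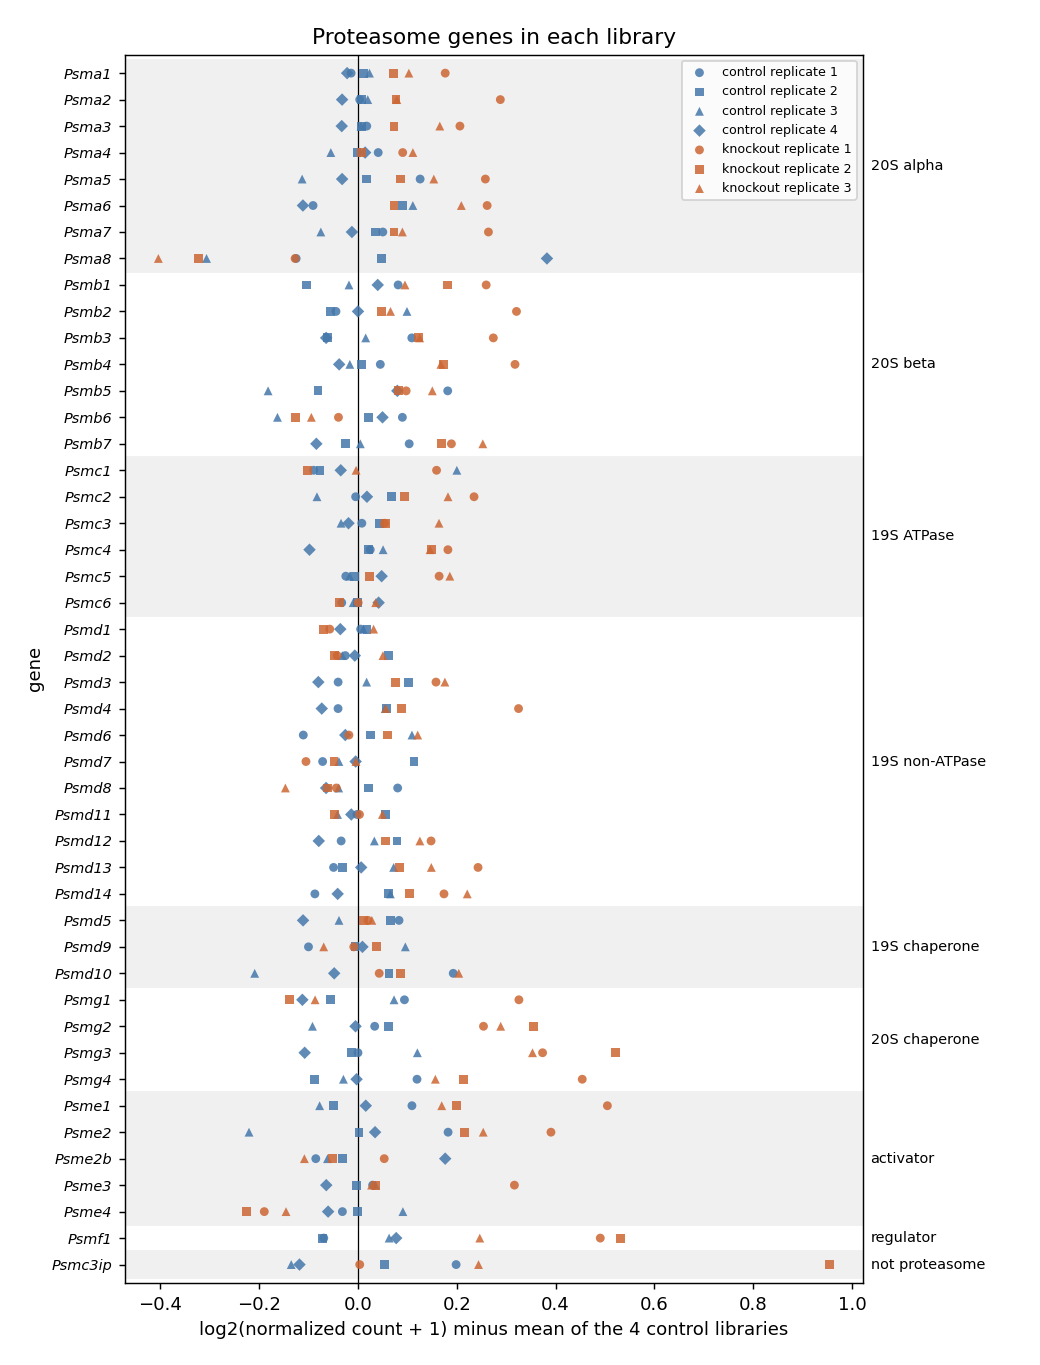
Each member's log2(normalized count + 1) in each library minus the mean of the 4 control libraries (x axis), with controls in blue, knockouts in orange and 1 symbol per replicate. Knockout replicate 1 (orange circles) is the highest library for 20 of the 46 genes, 10 of them among the 14 core genes without Psma8, and for 23.5% of all genes tested.

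Chaperones that assemble the core had the highest median of the classes with more than 1 gene, 0.29 over 4 genes. None passed the test, and 3 were higher at an unadjusted p under 0.05. Psmg2, which pairs with Psmg1 to start the alpha ring, stood at 139, 142, 127 and 135 in controls and 162, 174 and 166 in knockouts. No library of a group reached the other group (log2 fold change 0.30, SE 0.09, adjusted p = 0.0512). Psmg3 was at 36.6, 36.2, 39.8 and 33.9 in controls and 47.7, 52.9 and 47.0 in knockouts (log2 fold change 0.42, adjusted p = 0.0812), and Psmg4, its partner, had a log2 fold change of 0.27 (adjusted p = 0.126). Psmg1 had 0.03. Psmg2 was called when scaled by library size (adjusted p = 0.0485) or by the upper quartile (adjusted p = 0.0476), or when only genes with a mean of at least 50 were tested (adjusted p = 0.0430). The chaperones of the 19S base, Psmd5, Psmd9 and Psmd10, had values of 0.02, -0.01 and 0.11. Psmd10, or gankyrin, overlapped between groups, with 709.9, 649, 537 and 601 in controls and 639.8, 659.6 and 715 in knockouts, and its value lay between 0.04 (without control replicate 3) and 0.18 (without control replicate 1) with single libraries left out.

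None of the 5 activator genes passed the test; at an unadjusted p under 0.05, 2 were higher and 1 was lower. Psme1 and Psme2, the alpha and beta subunits of PA28, are interferon-induced neighbours on chromosome 14 (55578123 to 55581529 and 55587441 to 55591113). Psme1 had 3686, 3303, 3238 and 3455 normalized counts in controls and 4848, 3925 and 3843 in knockouts. Psme2 had 4649.5, 4104, 3517 and 4197 in controls and 5371, 4756 and 4885 in knockouts. For both genes every knockout library lay above every control library, and the log2 fold changes were 0.29 (SE 0.10, adjusted p = 0.0584) and 0.29 (SE 0.10, adjusted p = 0.0706). Psme1 was called by DESeq2 (adjusted p = 0.0354), by library-size scaling (adjusted p = 0.0264) and by upper-quartile scaling (adjusted p = 0.0444). Without knockout replicate 1 its value was 0.18 (adjusted p = 0.122). Exons of Psme1 overlap those of Emc9 on the other strand. Psme2 was called by library-size scaling (adjusted p = 0.0312) and without control replicate 1 (adjusted p = 0.0411).

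Psme4, which encodes PA200, a nuclear cap that acts on acetylated histones, was the only member whose knockout libraries all lay below the controls, as did 16.3% of all genes tested. Its counts were 2094, 2140.0, 2279.7 and 2053 in controls and 1877, 1832 and 1935 in knockouts. Controls averaged 2142 ± 98.7 (SD, n = 4) and knockouts 1881 ± 51.8 (SD, n = 3), with a log2 value of -0.19 for the fold change (SE 0.06, adjusted p = 0.0645). DESeq2 called it lower (adjusted p = 0.0406), the only 1 of 21 alternatives to do so, and the authors' deposited adjusted p was 0.0733. Psme3, the nuclear PA28 gamma subunit, was at 1542, 1508, 1548 and 1445 in controls, 1881 in knockout replicate 1 and 1549 and 1539 in the others (log2 fold change 0.13, adjusted p = 0.298, and a value of 0.03 without replicate 1). Psme2b, an intronless copy of Psme2 on chromosome 11 that can share its reads, had 286, 297, 291 and 344 in controls and 315, 293 and 282 in knockouts, with groups that overlapped. Exons of Psme2b overlap those of the protein-coding gene 9930111J21Rik1 on the same strand.

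In all, 19 members had knockout libraries that all lay above the controls and 1 had them all below, against 17.4% and 16.3% of all genes tested, and 26 overlapped. Knockout replicate 1 was the highest of all 7 libraries for 10 of the 14 core genes and for 5 of the 17 genes of the 19S particle, and it was so for 23.5% of all genes tested. The median core gene stood 0.26 above the control mean in that library, 0.08 in knockout replicate 2 and 0.12 in knockout replicate 3 (log2 units), and the control libraries lay between -0.03 and 0.05. For 19S genes the corresponding medians were 0.15, 0.06 and 0.12. Without knockout replicate 1 the median log2 fold change was 0.12 for core genes and 0.09 for 19S genes. The 19S median was 0.05 without knockout replicate 3 and also without both control replicates 1 and 4. The members varied little within a group: the median coefficient of variation was 5.38% among controls and 5.22% among knockouts, against 10.4% and 10.9% over all genes tested. The 2 sets were not matched by level, and the part of level in this contrast was not tested.

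Some marker sums of cell types did not overlap between the groups or stood apart in knockout replicate 1. Summed markers of natural killer cells, all 8 detected, lay between 5422 and 10185 normalized counts in controls and between 32361 and 37346 in knockouts. The 8 neutrophil markers summed to between 14377 and 17341 in controls, to 65150.2 in knockout replicate 1 and to 20898 and 22468 in the other knockouts. The 6 erythroid markers, Slc4a1 among them at 0 in some libraries, summed to 136630 in knockout replicate 1 and to between 1254 and 26200 elsewhere. Markers of dividing cells, all 9 detected, summed to between 9106 and 11404 in controls and were lowest among knockouts in replicate 1 (9109, against 14464.5 and 13793). Of these 9 genes, 8 had log2 fold changes above 0, 3 were called higher and 0 lower. Mki67, the largest part of the sum, had a log2 fold change of -0.13. It stood at 3068 in knockout replicate 1, against 4316 to 5076 in controls. All 8 alveolar macrophage markers were detected in the labelled airspace cells, with sums of 53314 to 85690 in controls and 71288 to 115173 in knockouts. Chil3 made up most of these sums, with means of 66823 in controls and 79174 in knockouts. All 8 markers had log2 fold changes above 0, and none was called. The 9 markers of recruited macrophages, all detected, summed to between 20272.5 and 31012.5 in controls and to 20699, 13092 and 14308 in knockouts. They did not move together: 5 of the 9 were called lower and 1, Ccr2, was called higher (log2 fold change 0.48, adjusted p = 0.0423 by limma). Epithelial markers, all 7 detected, summed to between 361 and 471 in controls and between 566 and 952 in knockouts, with 5 of 7 called higher. Dendritic cell markers, 6 of 7 in the table, summed to between 895 and 1246 in controls and between 1537 and 2596 in knockouts, with the highest sum in replicate 1. Ccr7, the largest part of the sum, averaged 710 in controls and 1430 in knockouts. It was the 1 gene of the 6 that was called (log2 fold change 0.98, adjusted p = 0.0276 by limma). Of the 6, 4 had log2 fold changes above 0, and 2 lay below, Xcr1 (-0.36) and Clec9a (-0.22). Sums overlapped between the groups for the erythroid, dividing and both macrophage lists. They also overlapped for 8 T cell markers (4111 to 5107 and 4024 to 5794) and for 6 B cell markers (393 to 549 and 533 to 834). Of the T cell markers 1, Cd28, was called higher (log2 fold change 0.72, adjusted p = 0.00306 by limma), and 5 lay below 0. Ighm, the largest part of the B cell sum, was called higher (0.68, adjusted p = 0.0219 by limma), the 1 call among the 3 B cell markers tested. The part of these cells in the proteasome values was not tested.

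Levels per length spanned a wide range among the subunits. Per kilobase of merged exon, control means ran from 189 normalized counts for Psmb7 to 1548 for Psma6 over the 31 genes of the core and the 19S particle without Psma8. In knockouts the ends were 214 for Psmd11 and 1754 for Psma6. Per kilobase of the principal transcript, a length chosen after the first values were seen, controls ran from 480.02 for Psmd11 to 1833 for Psma6, so the span depends on the length used. Psma6 had the highest control mean of the 31 on both lengths, but per principal transcript Psma7 (control mean 1794) was higher than Psma6 in control replicates 1 and 4. Outside the core and the 19S particle, control levels per kilobase of merged exon were 2334 for Psme2, 1548 for Psme1, 51.3 for Psmf1 and 12.7 for Psmg3.

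**Figure D4:**
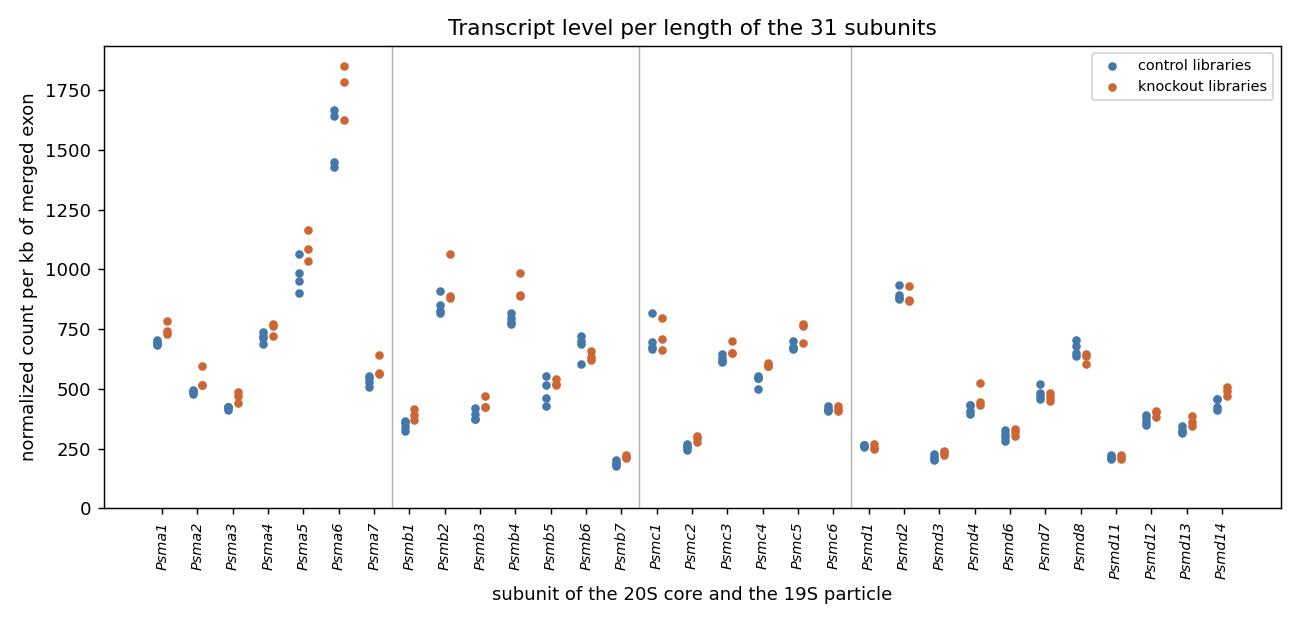
Normalized count per kilobase of merged exon (y axis, from 0) of the 31 subunit genes of the 20S core and the 19S particle in each library, controls in blue and knockouts in orange. Psma6 lies between 1429.8 and 1851 over the 7 libraries and Psmb7 between 179 and 226, and blue and orange points of a gene lie close together beside the distance between these genes.

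The inducible catalytic subunits were compared with the constitutive subunits they replace. Psmb10 rose, from 1813, 1636, 1635 and 1685 in controls to 2488, 2149.9 and 1976 in knockouts (log2 fold change 0.38, SE 0.09, adjusted p = 0.0174 by limma). Leaving out control replicate 2 raised the adjusted p to 0.0517, and leaving out knockout replicate 2 raised it to 0.0509. Psmb9 lay above all controls in every knockout library and missed the threshold (0.34, SE 0.11, adjusted p = 0.0505), and its exons overlap those of Tap1 on the other strand. Psmb9 was called in 7 of 21 alternatives, among them edgeR (adjusted p = 0.0493), DESeq2 (adjusted p = 0.0304), library-size scaling (adjusted p = 0.0230) and the fit without knockout replicate 3 (adjusted p = 0.0467). For Psmb8 the counts were 2626, 2338, 2314 and 2631 in controls, 3322 in knockout replicate 1 and 2457 and 2485 in the other knockouts, so the groups overlapped (log2 fold change 0.14, adjusted p = 0.403). The log2 ratio of Psmb9 to Psmb6 averaged 0.29 ± 0.07 (SD, n = 4) over controls and 0.72 ± 0.15 (SD, n = 3) over knockouts, and all 3 knockout libraries exceeded the controls. The 2 means differed by 0.43 (exact permutation p = 0.0286, 2-sided, which is the lowest value the 35 splits allow). Adjusted over the 3 ratios the exact permutation p was 0.0857, so the ratio did not pass. For Psmb10 over Psmb7 the difference was 0.17 (exact permutation p = 0.20, adjusted 0.30), with 0.07 without knockout replicate 1 and 0.27 without knockout replicate 3, and for Psmb8 over Psmb5 it was 0.03 (exact permutation p = 0.857).

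**Figure D5:**
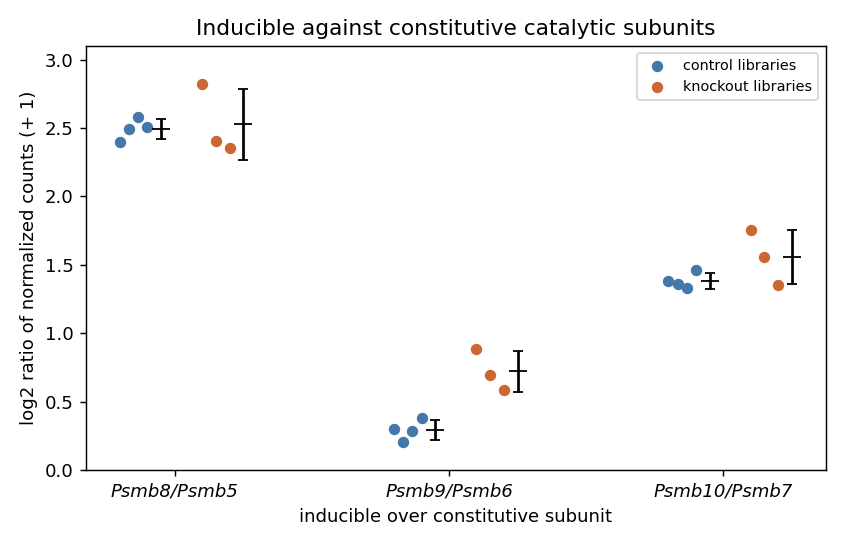
Log2 ratio of normalized counts (+ 1) of each inducible subunit to its constitutive counterpart (y axis, from 0) in each library, with mean and SD; controls in blue, knockouts in orange. The Psmb9 to Psmb6 ratio lies at 0.21 to 0.38 in controls and 0.59 to 0.88 in knockouts, while the other ratios overlap between groups.

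Genes of proteins that bind or serve the proteasome are read beside the 10.4% of all genes tested that rose and the 11.3% that fell. Of 19 tested genes for associated proteins 1 rose, Midn, whose product midnolin carries nuclear proteins to the proteasome without ubiquitin (log2 fold change 0.36, adjusted p = 0.0310, and 0.0558 to 0.0825 without control replicate 1, 3 or 4 or knockout replicate 1 or 2), and 1 fell, Ddi2, the protease that activates NRF1 (-0.37, adjusted p = 0.0330, lost without any 1 of 5 libraries, control replicates 2, 3 and 4 and knockout replicates 1 and 2, with 0.0571 to 0.101). Ddi2 stood at 1681, 1890.5, 2047 and 1728 in controls and 1264, 1374 and 1622 in knockouts, with no overlap. Nfe2l1, the gene of NRF1, overlapped between groups (log2 fold change -0.15, 95% interval -0.45 to 0.15, adjusted p = 0.441). With single libraries left out its value lay between -0.24 (without control replicate 3) and -0.03 (without knockout replicate 1). Pomp, a chaperone of core assembly, had 0.22 (adjusted p = 0.0598). Among 12 transcriptional regulators of proteasome genes Stat3 rose by 0.40 (adjusted p = 0.00425), and Mafg, a partner of NRF1 and NRF2, and Ddi2, also on this list, fell. Mafg had a log2 fold change of -0.50 (adjusted p = 0.00314), and Stat3 and Mafg passed with any single library left out.

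Upstream, 3 of 13 genes for ubiquitin and its enzymes rose, with Rps27a, a ubiquitin fusion gene, at 0.32 (adjusted p = 0.0165), and none fell. Of 11 genes of the p97 segregase, which extracts ubiquitinated proteins for degradation, 1 fell (Ubxn7, log2 fold change -0.35, adjusted p = 0.00910) and none rose. The COP9 signalosome, a complex related to the 19S lid, had 2 of 9 genes that rose, Cops4 (0.33, adjusted p = 0.0116) and Gps1 (0.29, adjusted p = 0.0237), and a median of 0.13. Of 8 genes of the CCT chaperonin, a complex that folds proteins, 1 rose (Cct5, 0.24, adjusted p = 0.0195), with a median of 0.10. Of 10 class I loading genes, which handle peptides made by the proteasome, 1 fell (Erap1, -0.24, adjusted p = 0.0438) and the median was 0.01. No gene of 10 for heat shock proteins passed the test, 1 was lower at an unadjusted p under 0.05, and the median was -0.13. The median of the ubiquitin list was 0.14. With single libraries left out, Ubxn7 and Cops4 passed each time. The call was lost for Rps27a without control replicate 2 or knockout replicate 2 (adjusted p = 0.0513 and 0.0684), and for Cct5 without control replicate 4 or knockout replicate 2 (0.0585 and 0.0798). Gps1 and Erap1 were called with 1 of the 7 libraries left out, control replicate 3, and had adjusted p-values of 0.0507 to 0.0662 and 0.0663 to 0.145 without any of the others.

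The authors' deposited table gave an adjusted p under 0.05 to 3 of the members, Psmf1 (0.00455), Psmb4 (0.0355) and Psme1 (0.0399), and to the inducible Psmb10 (0.00339) and Psmb9 (0.0336). The authors' log2 fold changes in that table were 0.40 for Psmf1, 0.21 for Psmb4 and 0.28 for Psme1. Psmc3ip, the member outside the proteasome, had a highest library of 53.8 in knockout replicate 2 against 24.8 to 32.5 elsewhere, and was not called (adjusted p = 0.280). Exons of 13 of the 46 members overlap those of another gene, in 9 of them a protein-coding one.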

How the data were processed

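Libraries were grouped by genotype. The submitters' processing notes name cutadapt 1.15, STAR 2.5.3a, HTSeq, DESeq2 and GRCm38 (mm10). Annotation and strand setting: not given in the sources used here. A table of 16476 genes was deposited, and its signal columns are size-factor normalized counts, from which whole reads were recovered (100% of values within 0.01 of a whole number). Per the file headers it also gives log2 fold changes, a test statistic, used here as a score, and p-values; these were printed only as the authors' values.

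limma 3.58.1 in R 4.3.3 (eBayes with trend) was fitted to log2(normalized count + 1) over the 12963 genes with a mean of at least 10, with Benjamini-Hochberg adjustment over all of them. The pseudocount of 1 understates the fold change of low genes. A read was worth about 1 normalized count, and 3 reads 2.65 to 3.76, for counting error only. Alternatives were other scalings, pseudocounts and filters, edgeR 4.0.16, DESeq2 1.42.0 and limma-voom on recovered reads, replicate blocks, and libraries left out. No library duplicated another: the chi-square per gene within groups was at least 8.63. The limma fit was also run on simulated counts. The outcome is not given here, so the text holds no measure of how small a change could be called. Positions and exon lengths are from GENCODE M21 (99.81% of identifiers matched).

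Members and gene lists were chosen with earlier results of these data known. The naming rule took called members, the 3 catalytic subunits, activators and Psmf1, the smallest p of each class without a call, the extreme fold changes, the inducible subunits, and up to 2 called genes per direction of each pathway list. Other members, and Pomp, were named after their values were seen. A gene that the rule takes is not reported here.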

Additional observations from a re-analysis of the deposited data

How the results depend on the processing

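The median log2 fold change of the members was 0.13 in the main fit. It lay between 0.10 and 0.17 with single libraries left out and between 0.11 and 0.16 under the 14 other alternatives. Each of these values differed from 0.13 by less than the pooled SD between libraries of a group in the median member. The number of members called moved more. Members that rose numbered 5 when scaled by library size, 4 by the upper quartile, and 0 with either replicate block, without both control replicates 1 and 4, or without both control replicates 2 and 3. With single libraries left out they numbered 0 (without knockout replicate 2) to 2. DESeq2 called 1 member lower, Psme4. With the title number as a replicate block, which leaves control replicate 4 without a partner and out of the estimate, 424 genes rose and 382 fell. With the description number as a block, which does the same to control replicate 1, 591 rose and 605 fell. Deviations of same-numbered libraries correlated at -0.23, -0.03 and -0.19 by title and at -0.08, -0.29 and 0.08 by description. With so few pairs these values cannot show whether same-numbered libraries were paired. Why calls were lost under a block was not tested. Without control replicates 1 and 4, 624 genes rose and 567 fell, and without control replicates 2 and 3, 622 and 620. With single libraries left out these counts ran from 695 to 1172 and from 820 to 1303. Pathway genes that rose, 8 in all, numbered 14 by library size, 1 and 2 under the blocks, 2 and 1 without the control pairs, and 2 to 8 with single libraries left out. Those that fell, 4 in all, numbered 1 under each block, 2 and 1 without the control pairs, and 2 to 5 with single libraries left out. Fits without libraries test fewer samples, and the cause of the other shifts was not tested.

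Of the 46 members, 10 changed sign under at least 1 of 21 alternatives, and neither called member was among them. In 8 of the 10 (Psmc1, Psmc6, Psmd2, Psmd5, Psmd6, Psmd9, Psmd11 and Psmg1) the value lay within -0.11 and 0.12 under every alternative. The log2 fold change of Psmb5 was -0.0207 without control replicates 2 and 3. For Psme2b it was 0.0237 with the title block and 0.0107 without control replicates 1 and 4, and -0.0795 to 0.0237 with single libraries left out. For Psmb8 it was -0.00105 to 0.217 with single libraries left out, the lowest without knockout replicate 1. The Psmb8 to Psmb5 log2 ratio differed by -0.118 to 0.118 with single libraries left out and by -0.0118 without control replicates 1 and 4. Control levels per kilobase ran from 189 to 1548 by merged exon and from 480.02 to 1833 by principal transcript. Depth limits Psma8 most, whose libraries hold few reads.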
